A study of Mus musculus with 6 samples.

Results

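The 44 genes described here belong to the apoptosis machinery: the Bcl2 family, the caspases and their partners, the inhibitors of apoptosis, the p53 axis, and the death receptor pathway. They were chosen by gene symbol, and all 44 are listed among the 21744 genes of the retinal expression table. By role, 32 are pro-death genes, 10 are survival genes, and 2 (*Cdkn1a* and *Ripk1*) were placed on neither side. The table comes from mouse retinas at postnatal day 7 (P7), from 3 control and 3 *Lhx4* null mice on a mixed C57BL/6J and 129S6 background, with 1 library from the retinas of each mouse. *Lhx4* encodes a LIM-homeodomain transcription factor of bipolar cells (BCs), the interneurons that link photoreceptors to ganglion cells. In the study, null mice carried a tdTomato knock-in allele and a loxP allele of *Lhx4* together with *Six3-Cre*, which drives recombination in the retina. The exact genotype of the control mice used for RNA sequencing is not given in the sources used here. The pigment epithelium was removed before extraction, and the whole retina was sequenced. The study looked for apoptotic BCs at this age by immunostaining, which reads protein and not RNA. The comparison below asks whether the RNA of the apoptosis genes differed between the genotypes.

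Values are FPKM, a measure scaled for transcript length and for the fragments mapped in each library, so levels can be compared between genes. Control replicate 3 was the deepest library by the steps of the lowest values, and the other two controls had 76.9% and 95.7% of its depth, against 46.7% to 65.9% in the null group. Every library of the null group was thus shallower than every control, so depth and genotype cannot be told apart. Libraries of a group correlated across genes with r between 0.982 and 0.992, and libraries of different groups with r between 0.982 and 0.99. *Lhx4* itself stood at 20.9, 23.8, and 19.1 FPKM across control replicates 1, 2, and 3 and at 31.2, 30.3, and 29.0 FPKM in the null group (log2 fold change 0.51, adjusted p = 0.098 from limma). Its gene-level value was thus not lower under the null label. One value per gene cannot tell which exons the fragments came from, so this level does not test the label. Bipolar genes were lower in the same libraries: *Grm6* was at 60.5 ± 12.2 and 21.4 ± 3.0 FPKM (log2 fold change -1.49, adjusted p = 0.0091 from limma), *Scgn* had a log2 fold change of -1.73 (adjusted p = 0.035), and *Isl1* one of -0.70 (adjusted p = 0.031). Because of the *Lhx4* level alone, the second group is therefore called labelled-null below. Retinal markers were present in every library: 6 rod genes summed to between 2512 and 3511 FPKM, and 8 bipolar genes summed to 774 to 876 FPKM in controls and to 608.5 to 689 FPKM in the others. Although the pigment epithelium was removed, 4 of its genes summed to 16.6 to 34.9 FPKM in controls and to 37.9 to 67.7 FPKM in labelled-null libraries. In the same order, 4 fibroblast genes summed to 1.38 to 2.26 FPKM and to 4.37 to 5.06 FPKM. *Lum* was listed at 0 in every library but labelled-null replicate 3. Most of each fibroblast sum was *Col1a2*, at 1.29 to 2.07 FPKM and 4.115 to 4.72 FPKM (log2 fold change 1.26, adjusted p = 0.049 from limma). The part of the pigment epithelium and fibroblast genes in the values below was not tested. In whole retina, fewer cells of a type and less RNA per cell cannot be told apart.

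Apoptosis through mitochondria is decided by the Bcl2 family. BAX and BAK open the outer mitochondrial membrane, survival members such as Bcl-xL hold them in check, and BH3-only proteins release them from that check. Cytochrome c then leaves the mitochondrion and joins APAF1 to activate caspase-9, which starts the caspase cascade. A separate route runs from death receptors at the cell surface through FADD to caspase-8. The developing retina uses this machinery to remove excess neurons in the first weeks after birth, and much of its control lies in protein location, cleavage, and degradation. RNA levels report the supply of the parts.

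Of the 44 genes, 40 had a mean of at least 0.1 FPKM and were tested, 28 of them pro-death and 10 survival genes. No apoptosis gene passed the test: limma, adjusted over the 15200 genes tested, gave 0 of 40 an adjusted p under 0.05, lower or higher, where 0.138% of all genes tested were lower and 0.0855% were higher at this threshold. The smallest adjusted p of the 40 was 0.41, for *Hrk*. At an unadjusted p under 0.05 from limma, 1 gene was lower (*Bnip3*) against 3.55% of all genes tested, and 2 were higher (*Hrk* and *Bcl2l1*) against 4.6%. These 3 of 40 stand against 8.15% of all genes tested in either direction, a share near the background. The labelled-null libraries lay wholly above the controls in 4 of the 40 genes (*Hrk*, *Bcl2l1*, *Casp9*, and *Tnfrsf10b*), against 8.1% of all genes tested. They lay wholly below in 0 of the 40, against 6.13% of all genes tested.

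Neither the pro-death nor the survival genes were shifted to one side. Among the 28 pro-death genes tested, 12 had a log2 fold change below 0 and 16 above it, with a median of 0.02 on the log2(FPKM + 0.1) scale. Among the 10 survival genes, 4 were below 0 and 6 above it, with a median of 0.02. The median over all genes tested was 0.01. The median size of the difference, without its sign, was 0.12 in pro-death genes and 0.06 in survival genes, and 0.10 over all genes tested. In the plot of fold changes with their intervals, the apoptosis genes lie around 0 in each role.

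**Figure D1:**
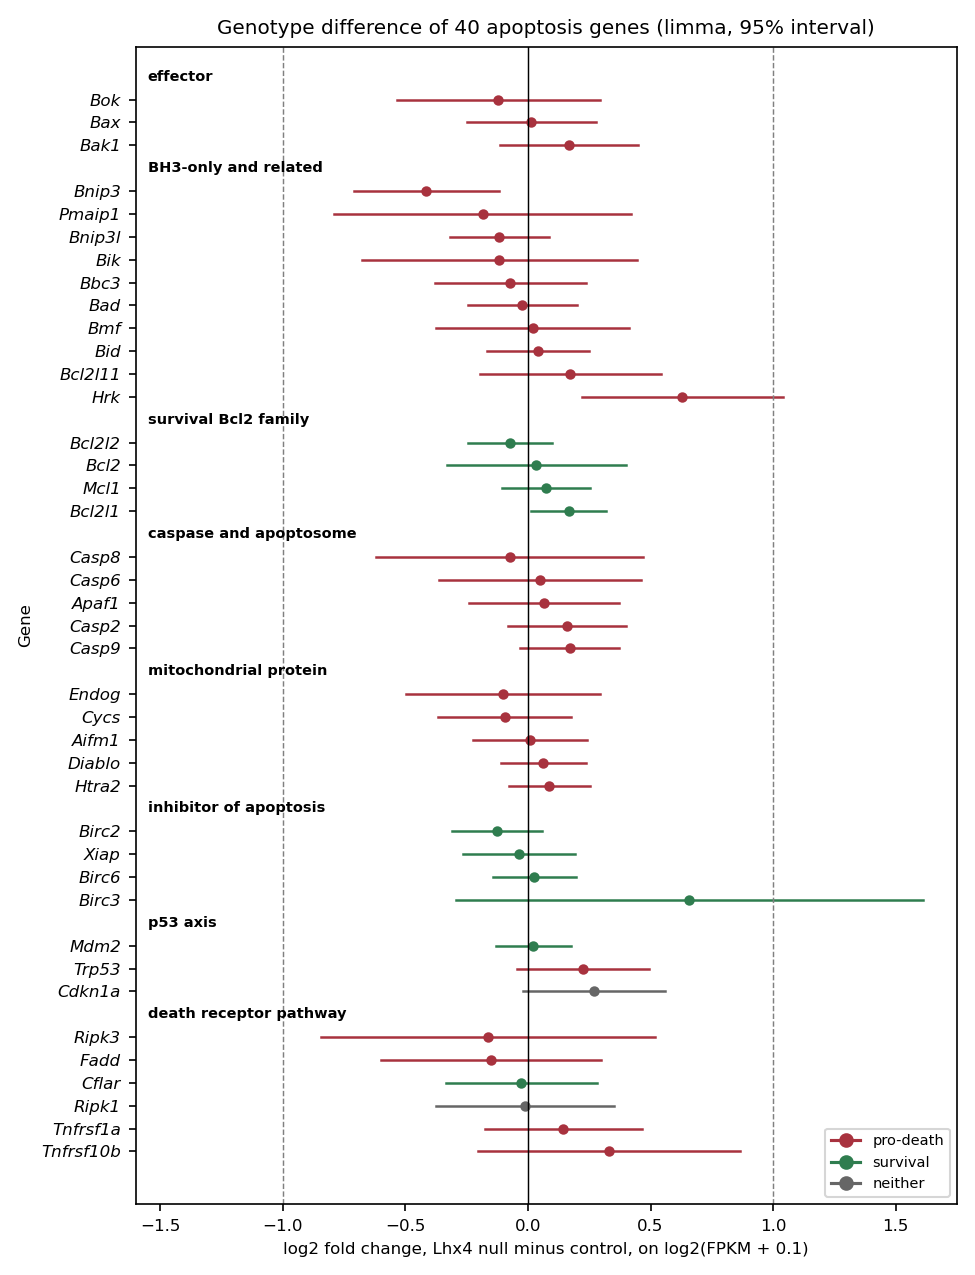
Log2 fold change (horizontal axis, labelled-null libraries minus control, on log2(FPKM + 0.1)) of the 40 apoptosis genes tested, grouped by role, with the 95% interval from limma as a line; dashed lines mark a 2-fold difference either way. Intervals of *Hrk*, *Bnip3*, and *Bcl2l1* lie on one side of 0, and only those of *Hrk* and *Birc3* cross a dashed line.

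The precision of these values was set by 3 libraries a group. Among the 33 genes at or above 1 FPKM on average, the 95% interval of the log2 fold change lay within 2-fold either way in 32, all but *Hrk*. It lay within 1.5-fold either way in 30 of the 33, all but *Hrk*, *Bnip3*, and *Fadd*. Over all 40 genes, 38 intervals lay within 2-fold against 90.4% of all genes tested, and 31 within 1.5-fold against 71.7%. Of the 12485 genes tested that averaged 1 FPKM or more, 96.9% of intervals lay within 2-fold and 85% within 1.5-fold. The intervals are not adjusted for the number of genes, and a p that misses the threshold leaves differences inside them possible. The 7 genes tested under 1 FPKM had wider intervals, with a median standard error of 0.24 against 0.12 in the 33.

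**Figure D2:**
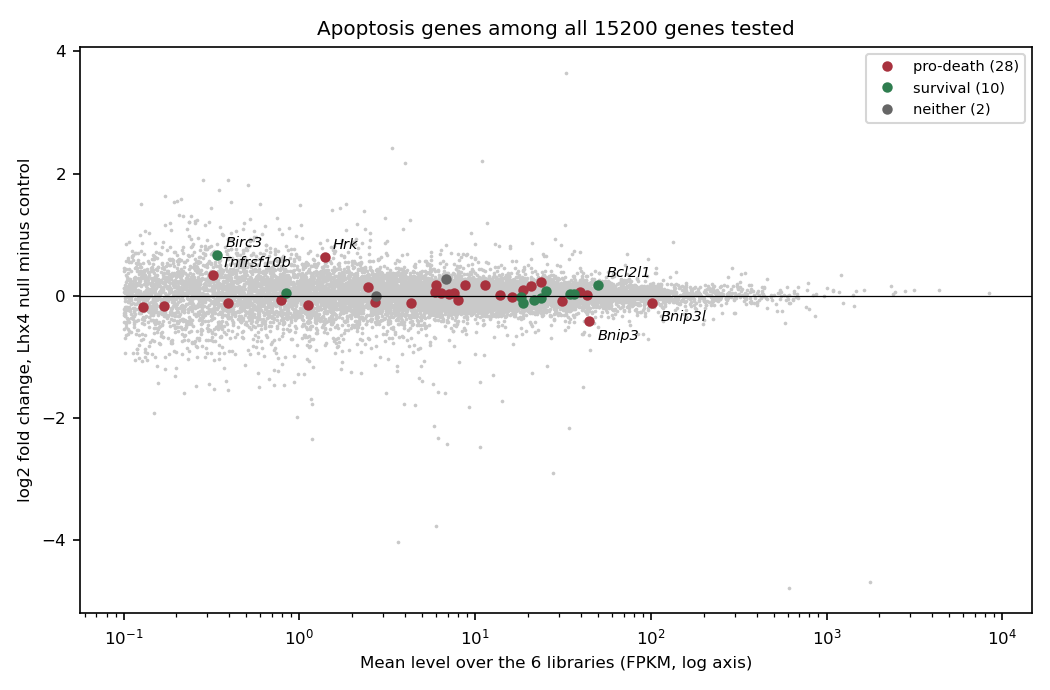
Log2 fold change (vertical axis) against the mean level over the 6 libraries (horizontal axis, FPKM, log scale) for the 15200 genes tested in grey, with the 28 pro-death, 10 survival, and 2 other apoptosis genes in colour. The apoptosis genes lie within the grey band of genes at the same level, between -0.41 for *Bnip3* and 0.66 for *Birc3*.

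The levels spanned a wide range. *Bnip3l* was the most abundant gene with a mean of 101.8 FPKM over the 6 libraries, followed by *Bcl2l1* at 50.0, *Bnip3* at 44.7, *Bax* at 43.3, and *Diablo* at 39.8 FPKM. The survival gene *Bcl2* was far below its relative *Bcl2l1*, at 0.837 FPKM. The mean of *Mcl1* was 25.3 FPKM and that of *Bcl2l2* 21.6 FPKM. Of the caspases in the list, *Casp2* had the highest mean, 20.8 FPKM. The inflammatory caspases *Casp1*, *Casp4*, and *Casp12* and the receptor *Fas* had means under 0.1 FPKM.

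**Figure D3:**
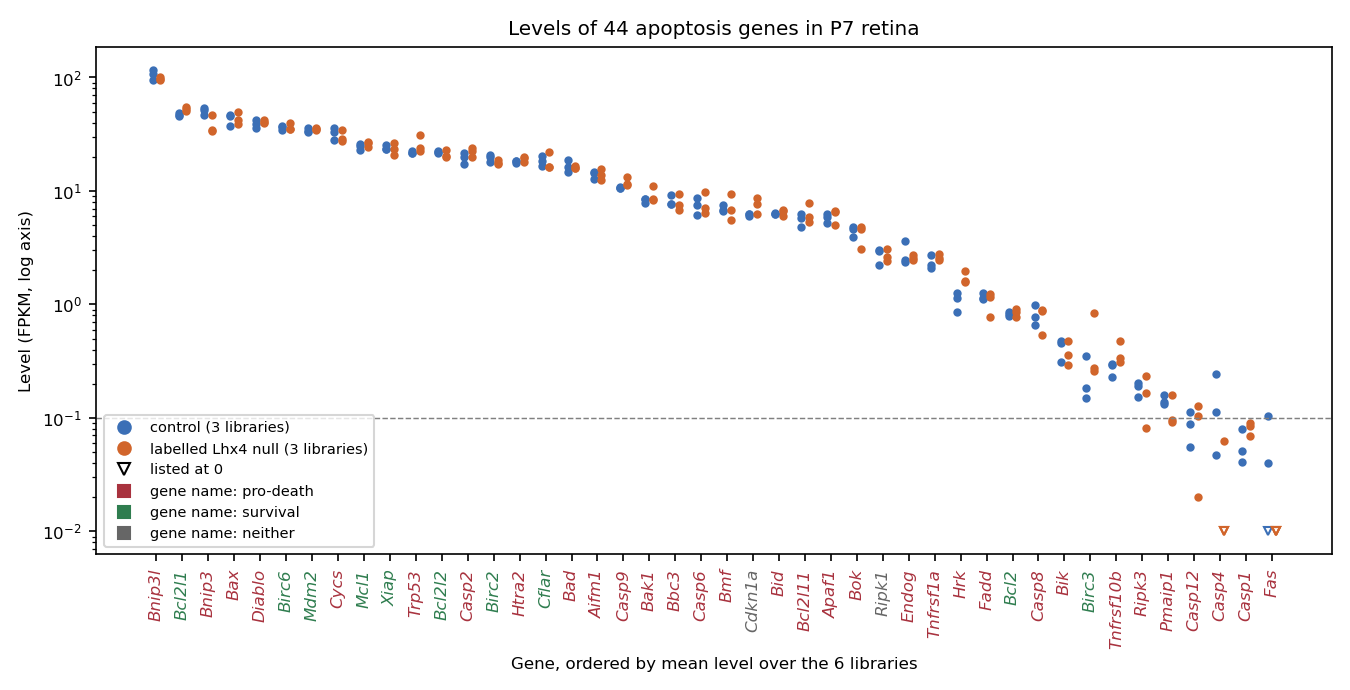
Level of each of the 44 apoptosis genes (vertical axis, FPKM on a log scale) in the 3 control libraries and the 3 labelled-null libraries, ordered by mean level; open triangles stand for values listed at 0, and the dashed line marks the 0.1 FPKM filter. Blue and orange points overlap for most genes, from *Bnip3l* near 102 FPKM down to *Fas* at 0.0240 FPKM.

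None of the pore-forming effectors separated the groups. *Bax* (ENSMUSG00000003873, chromosome 7 of GRCm38, 45461697 to 45466898) stood at 46.4, 37.3, and 45.7 FPKM across control replicates 1, 2, and 3. In the labelled-null libraries it was at 39.1, 42.3, and 49.2 FPKM. The groups overlap, with control replicate 2 lowest and labelled-null replicate 3 highest. The log2 fold change was 0.01 (95% interval -0.25 to 0.28, adjusted p = 0.99 from limma). *Bak1* was at 8.44, 8.46, and 7.78 FPKM in controls and at 11.1, 8.56, and 8.28 FPKM in the others, where replicate 1 stands above the rest (log2 fold change 0.17, interval -0.12 to 0.45, and 0.03 without that library). *Bok*, another relative of these effectors, was at 4.66, 3.90, and 4.77 FPKM in controls and at 3.05, 4.63, and 4.76 FPKM in the others. Its log2 fold change was -0.12 (interval -0.53 to 0.29), and its lowest library was labelled-null replicate 1, in the direction opposite to *Bak1*.

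The BH3-only and related genes held both ends of the range. *Hrk*, whose product binds Bcl-xL and is known for its induction in neurons deprived of trophic factors, was at 1.251, 0.858, and 1.13 FPKM in control libraries. It was at 1.95, 1.62, and 1.57 FPKM in the labelled-null libraries. Every labelled-null library was above every control library, and the group means were 1.08 ± 0.20 and 1.71 ± 0.21 FPKM (mean ± SD, n = 3). The log2 fold change was 0.63 (standard error 0.18, 95% interval 0.22 to 1.04), with an unadjusted p of 0.0076 and an adjusted p of 0.41 from limma. *Hrk* stayed between 0.39 and 0.74 on the log2 scale in 15 alternative settings, and the lowest adjusted p among the 14 with a test was 0.32. *Hrk* (ENSMUSG00000046607) lies on chromosome 5 of GRCm38 from 118164648 to 118189478, on the plus strand.

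*Bnip3*, a mitochondrial protein related to the BH3-only group that acts in mitophagy and is a known target of the hypoxia-inducible factor, was at 54.3, 46.5, and 51.7 FPKM in control libraries. It was at 34.1, 34.4, and 46.9 FPKM in the labelled-null libraries. Replicates 1 and 2 of these were below all controls, and replicate 3 lay within 1 FPKM of control replicate 2. The means were 50.8 ± 3.9 and 38.5 ± 7.3 FPKM, and the fitted log2 difference was -0.41 (standard error 0.13, 95% interval -0.71 to -0.12, unadjusted p = 0.012, adjusted p = 0.48 from limma). Leaving out labelled-null replicate 2 gave *Bnip3* a log2 fold change of -0.34 and its unadjusted p was above 0.05, and without labelled-null replicate 3 it was -0.57 (adjusted p = 0.11 from limma). Of its exon bases in GENCODE vM21, 22.3% overlap exons of other genes, with the largest overlap from *Gm45507* on the opposite strand. Whether fragments were assigned by strand is not given in the sources used here. *Bnip3* (ENSMUSG00000078566) lies on chromosome 7 of GRCm38 from 138890836 to 138909519, on the minus strand. Its relative *Bnip3l* was at 116, 94.3, and 107 FPKM in controls and at 96.7, 101, and 94.7 FPKM in the others, with overlap and a log2 fold change of -0.12 (interval -0.32 to 0.08). Without control replicate 2 it was -0.20 and reached an unadjusted p under 0.05.

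The 250 bases before the RefSeq start of *Bnip3* and *Hrk*, the lowest and the highest of the pro-death genes by fold change, are shown because the study concerns a homeodomain protein and *Bnip3* is a hypoxia target. The windows are chr7:138909507-138909756 on the minus strand and chr5:118169514-118169763 on the plus strand of GRCm38.p6, from RefSeq, read 5′ to 3′. The GENCODE gene spans given above reach past these starts, so the *Hrk* window lies inside the span of its gene, downstream of the first base of the longest annotation. The windows share 16 bases with an exon of *Hrk* and 13 bases with an exon of *Bnip3*. Capitals mark ACGTG, the core of the hypoxia response element, on either strand, and TAATTA, a core bound by many homeodomain proteins, which reads the same on both strands.
Bnip3: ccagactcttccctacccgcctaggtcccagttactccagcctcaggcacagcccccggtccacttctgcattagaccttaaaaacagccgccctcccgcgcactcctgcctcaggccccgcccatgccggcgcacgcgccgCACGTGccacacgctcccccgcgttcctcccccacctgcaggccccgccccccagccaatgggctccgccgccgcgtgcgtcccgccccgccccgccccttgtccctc
Hrk: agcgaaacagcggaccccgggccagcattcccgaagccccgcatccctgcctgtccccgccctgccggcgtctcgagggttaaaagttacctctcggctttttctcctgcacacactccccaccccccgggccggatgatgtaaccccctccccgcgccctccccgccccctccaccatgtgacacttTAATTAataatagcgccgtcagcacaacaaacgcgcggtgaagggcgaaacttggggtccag
In *Bnip3* the ACGTG letters occur on both strands in overlapping copies, from 108 to 103 bases before the start. In *Hrk* the TAATTA letters lie from 62 to 57 bases before the start. Among the 53 windows found for 39 of the 44 genes, 12 held ACGTG and 1, that of *Hrk*, held TAATTA. Of all 32851 windows of the same length, 16.6% held ACGTG and 4.84% held TAATTA. These matches describe the letters in the window and are no evidence of binding.

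The other BH3-only genes lay between these ends. *Bcl2l11* encodes BIM, a broad activator of BAX and BAK, and was at 5.77, 4.79, and 6.25 FPKM in controls and at 5.35, 7.83, and 5.93 FPKM in the labelled-null libraries (log2 fold change 0.17, interval -0.20 to 0.54). Without labelled-null replicate 2 the log2 fold change of *Bcl2l11* was 0.02, and without control replicate 2 it was 0.06. *Bbc3* encodes PUMA, a BH3-only target of p53, and was at 7.73, 9.19, and 7.72 FPKM and at 7.45, 9.30, and 6.79 FPKM (log2 fold change -0.07, interval -0.38 to 0.23). In both genes the groups overlap throughout. *Bid*, which links caspase-8 to mitochondria, varied little among controls, from 6.23 to 6.34 FPKM, and was at 5.99 to 6.82 FPKM in labelled-null libraries (log2 fold change 0.04). *Bad*, whose product is held inactive by survival kinases, was at 16.3, 14.6, and 18.6 FPKM and at 16.6, 15.9, and 16.0 FPKM, a log2 difference of -0.02. In these genes, too, the groups overlap. *Bmf* had a log2 fold change of 0.02 and was spread more widely in the labelled-null libraries, at 9.32, 6.79, and 5.59 FPKM. *Pmaip1*, which encodes NOXA, was at 0.133, 0.138, and 0.159 FPKM and at 0.159, 0.0922, and 0.0965 FPKM, where replicate 1 matches the highest control (log2 fold change -0.18, interval -0.79 to 0.42). *Bik* was also low, at a mean of 0.394 FPKM, with a log2 fold change of -0.12.

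**Figure D4:**
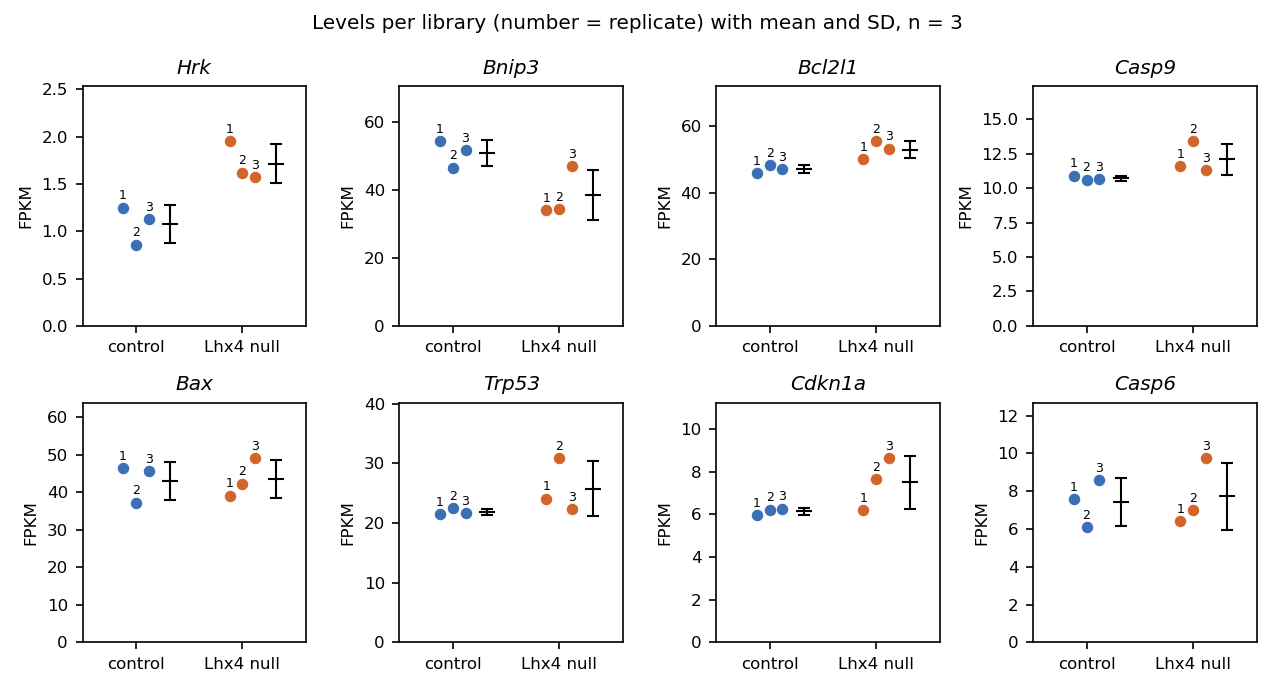
FPKM per library (vertical axes, from 0) of 8 genes in the control libraries and the labelled-null libraries, with the replicate number above each point and the mean and SD of the 3 libraries in black. In *Hrk*, *Bcl2l1*, and *Casp9* the groups do not overlap, while *Bax* and *Casp6* overlap widely, with control replicate 2 and labelled-null replicate 1 lowest of their groups.

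On the survival side of the Bcl2 family, *Bcl2l1* (ENSMUSG00000007659, chromosome 2, 152780668 to 152831728) was the gene that separated the groups. It encodes Bcl-xL and was at 45.9, 48.3, and 47.0 FPKM in the controls and at 50.1, 55.4, and 53.2 FPKM in the labelled-null libraries. All 3 of the latter lie above all controls, by group means of 47.1 ± 1.2 and 52.9 ± 2.6 FPKM (mean ± SD, n = 3). The log2 fold change was 0.17 (standard error 0.067, interval 0.01 to 0.32), with an unadjusted p of 0.036 and an adjusted p of 0.59 from limma. The unadjusted p rose above 0.05 without control replicate 1 (log2 fold change 0.15), without control replicate 3 (0.17), without labelled-null replicate 2 (0.13), without labelled-null replicate 3 (0.16), and without the mean-variance trend. The value sums all isoforms of the gene and does not separate the long survival form from the short one. *Bcl2* was at 0.817, 0.792, and 0.864 FPKM in controls and at 0.913, 0.860, and 0.774 FPKM in the others, with a log2 fold change of 0.04. *Mcl1*, a short-lived survival protein, was at 25.0, 23.1, and 25.9 FPKM and at 24.2, 27.1, and 26.6 FPKM (log2 fold change 0.07, interval -0.10 to 0.25). *Bcl2l2* was at 22.2, 22.6, and 21.6 FPKM and at 22.7, 19.98, and 20.5 FPKM (log2 fold change -0.07, interval -0.25 to 0.10). Neither gene separated the groups.

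The ratio of effector to survival RNA within a library overlapped between the groups. The log2 ratio of *Bax* to *Bcl2l1* averaged -0.13 ± 0.21 in control libraries and -0.29 ± 0.15 in the labelled-null libraries (mean ± SD, n = 3). The difference was -0.15 (exact permutation test, two-sided p = 0.3, Benjamini-Hochberg adjusted p = 0.6 over 2 ratios). For *Bax* to *Bcl2*, the log2 ratio averaged 5.54 ± 0.14 and 5.52 ± 0.28, a difference of -0.02 (exact permutation test, two-sided p = 1). With 3 libraries against 3, this exact test cannot go below p = 0.1. Summed over the 4 survival members of the family, the level was 93.9 to 95.4 FPKM in controls and 98.0 to 103 FPKM in the others, and over the 3 effectors it was 49.6 to 59.5 FPKM and 53.2 to 62.2 FPKM. Within the survival sum, group means were 47.1 and 52.9 FPKM for *Bcl2l1*, 24.7 and 25.95 for *Mcl1*, and 22.1 and 21.1 for *Bcl2l2*. Only *Bcl2l1* separated the groups, so the sum is no separate result for the family.

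Of the initiator caspases, *Casp9* (ENSMUSG00000028914, chromosome 4, 141793612 to 141815976) was at 10.9, 10.6, and 10.6 FPKM in the controls and at 11.6, 13.4, and 11.3 FPKM in the labelled-null libraries. The groups do not overlap, although labelled-null replicate 3 lies close to control replicate 1. Its log2 fold change was 0.17 (standard error 0.088, interval -0.03 to 0.37), with an unadjusted p of 0.090 and an adjusted p of 0.67 from limma. Leaving out labelled-null replicate 2 gave *Casp9* a log2 fold change of 0.095. *Apaf1*, the scaffold on which caspase-9 is activated, was at 6.22, 5.18, and 5.90 FPKM and at 5.04, 6.72, and 6.46 FPKM (log2 fold change 0.07). *Casp2* was at 21.7, 17.4, and 19.8 FPKM in controls and at 19.7, 22.4, and 23.7 FPKM in the others, with overlap and a log2 fold change of 0.16 (interval -0.08 to 0.40), which was 0.07 without control replicate 2. *Casp8*, the initiator of the death receptor route, was low in every library, at 0.657, 0.773, and 0.989 FPKM in controls and at 0.538, 0.867, and 0.899 FPKM in the others, with a log2 fold change of -0.07.

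*Casp6*, an effector caspase, was at 7.57, 6.08, and 8.597 FPKM in controls and at 6.42, 7.00, and 9.77 FPKM in the labelled-null libraries (log2 fold change 0.05, interval -0.36 to 0.46). The groups overlap, with control replicate 2 lowest and labelled-null replicate 3 highest.

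The 5 genes for proteins released from mitochondria had log2 fold changes between -0.10 and 0.09. *Cycs*, which encodes cytochrome c, was at 33.3, 27.9, and 35.5 FPKM in controls and at 28.7, 27.3, and 34.4 FPKM in the labelled-null libraries (log2 fold change -0.10, interval -0.36 to 0.17). *Diablo* and *Htra2* encode proteins that bind and neutralise the inhibitors of apoptosis, and their log2 fold changes were 0.06 and 0.09. *Diablo* was at 38.6, 36.1, and 42.2 FPKM in controls and at 39.9, 40.2, and 41.8 FPKM in the others. *Aifm1* and *Endog*, linked to caspase-independent DNA breakdown, were at 0.01 and -0.10. Of the exon bases of *Diablo*, *Htra2*, and *Endog*, 40.9%, 43.7%, and 35.7% overlap exons of other genes. In each the largest overlap is with a gene on the opposite strand, and reads of such a pair cannot be told apart without strand. Beside *Bnip3*, the next largest shares among the members were 25.5% for *Bak1*, 20.5% for *Bad*, 17.7% for *Bid*, 13.3% for *Bcl2l2*, and 12.2% for *Bax*. For *Bcl2l2* and *Bax* the largest overlap is with a gene on the same strand.

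Of the inhibitors of apoptosis, the 3 abundant ones had log2 fold changes between -0.12 and 0.03. *Xiap*, the direct inhibitor of caspases, was at 23.6, 25.3, and 23.4 FPKM in controls and at 26.7, 20.6, and 23.6 FPKM in labelled-null libraries (log2 fold change -0.04, interval -0.27 to 0.19). *Birc6* had a log2 fold change of 0.03 (interval -0.14 to 0.20) at a mean of 36.4 FPKM, and *Birc2*, a ubiquitin ligase in TNF receptor signalling, one of -0.12 (interval -0.31 to 0.06). *Birc3* was low, at 0.150, 0.182, and 0.352 FPKM in controls and at 0.834, 0.274, and 0.258 FPKM in the others. Its log2 fold change of 0.66 (interval -0.29 to 1.61) rested on labelled-null replicate 1, without which it was 0.21.

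*Trp53*, the gene for p53, was at 21.4, 22.5, and 21.6 FPKM in the controls and at 24.1, 30.9, and 22.3 FPKM in the labelled-null libraries. Labelled-null replicate 2 stands above the rest, and replicate 3 lies among the controls. The log2 fold change was 0.23 (interval -0.04 to 0.49, unadjusted p = 0.090, adjusted p = 0.67 from limma), and without labelled-null replicate 2 it was 0.09. Without labelled-null replicate 3 it was 0.32 and reached an unadjusted p under 0.05. *Cdkn1a*, the cell cycle inhibitor p21 and a target of p53, was at 5.97, 6.23, and 6.27 FPKM and at 6.21, 7.64, and 8.66 FPKM. Its labelled-null replicate 1 lies among the controls and the other two above them (log2 fold change 0.27, interval -0.02 to 0.56, adjusted p = 0.64 from limma). *Cdkn1a* reached an unadjusted p under 0.05 without labelled-null replicate 1 (0.40) and was at 0.16 without labelled-null replicate 3. *Mdm2*, which encodes the ligase that degrades p53 and is itself a p53 target, was at 33.3, 36.2, and 33.7 FPKM and at 34.1, 35.7, and 34.9 FPKM (log2 fold change 0.02, interval -0.13 to 0.17). Among 14 further p53 targets, 5 were below 0 and 9 above it, with a median of 0.06, and 0 had an adjusted p under 0.05 from limma. At an unadjusted p under 0.05, 2 of the 14 were higher, against 4.6% of all genes tested: *Perp* (1.13 ± 0.12 against 1.74 ± 0.26 FPKM, log2 fold change 0.58) and *Eda2r* (0.0442 ± 0.0011 against 0.170 ± 0.052 FPKM). *Eda2r* was under 0.1 FPKM in every control and passed the 0.1 FPKM filter only through the labelled-null libraries. Its place in this count therefore carries no weight.

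Among the death receptors, *Fas* and *Tnfrsf10b* were under 1 FPKM in every library. *Fas* was listed at 0 in control replicate 1 and in all 3 labelled-null libraries, and at 0.104 and 0.0398 FPKM in control replicates 2 and 3. *Tnfrsf10b*, the mouse TRAIL receptor, was at 0.293, 0.301, and 0.227 FPKM in controls and at 0.337, 0.472, and 0.309 FPKM in the others. These groups do not overlap, but control replicate 2 and labelled-null replicate 3 are close, and the log2 fold change was 0.33 (interval -0.20 to 0.86, adjusted p = 0.735 from limma). Under quantile normalization the groups of *Tnfrsf10b* overlap, and without labelled-null replicate 2 its log2 fold change was 0.18. *Tnfrsf1a* was at 2.08 to 2.75 FPKM and 2.47 to 2.76 FPKM, a log2 difference of 0.15. The adaptor *Fadd* was at 1.11, 1.14, and 1.26 FPKM and at 1.24, 1.16, and 0.780 FPKM, a log2 difference of -0.15. *Cflar*, which encodes the caspase-8 inhibitor FLIP and was the most abundant gene of the pathway, was at 18.3, 16.7, and 20.3 FPKM and at 16.3, 16.2, and 22.2 FPKM (log2 fold change -0.03, interval -0.34 to 0.28). The kinases *Ripk1* and *Ripk3*, of which the latter drives necroptosis, had log2 fold changes of -0.01 and -0.16, and *Ripk3* was at 0.192, 0.202, and 0.153 FPKM in controls and at 0.232, 0.0808, and 0.164 FPKM in the others.

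The 4 genes under the filter were *Fas*, *Casp1*, *Casp4*, and *Casp12*. With no filter, *Casp4*, a sensor of bacterial lipopolysaccharide, was the lower gene at an unadjusted p under 0.05 beside *Bnip3* (log2 fold change -0.91, adjusted p = 0.63 from limma). In that fit, 3.6% of all genes were lower at this threshold. *Casp4* was at 0.0471, 0.241, and 0.113 FPKM in controls, at 0.0628 FPKM in labelled-null replicate 3, and listed at 0 in labelled-null replicates 1 and 2. Those replicates were the shallowest libraries, at 46.7% and 57.5% of the deepest. The part of depth in values this low was not tested. *Casp1* and *Casp12* were between 0.0199 and 0.126 FPKM in every library. Microglia, which carry several of these inflammatory genes, were present: 9 microglial genes summed to between 32.6 and 37.7 FPKM in controls and between 37.2 and 49.0 FPKM in the others. Of the 9, 7 were above 0 in log2 fold change, against 53.3% of all genes tested. At an unadjusted p under 0.05 from limma, 2 were higher (*Csf1r* and *Tyrobp*), against 4.6% of all genes tested. An adjusted p under 0.05 was reached by 0 of these microglial genes, and none was listed at 0 in any library. Their part in the values of the low genes was not tested.

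The libraries also differed among themselves in ways that did not follow genotype. Control replicate 2 was the lowest of the controls in 17 of the 28 pro-death genes tested, 60.7%, against 41.7% of all genes tested. Labelled-null replicate 1 was the lowest of its group in 13 of the 28, 46.4%, against 35.5% of all genes tested. *Bax*, *Casp6*, and *Apaf1* shared this pattern. Of the 10 survival genes, control replicate 2 was lowest in 4 and highest in 4. Genes of cycling cells moved with it: 5 such genes summed to 7.65 FPKM in control replicate 2 and 9.60 FPKM in labelled-null replicate 1, and to between 15.9 and 29.1 FPKM in the other 4 libraries. Their part in the pattern was not tested. Without control replicate 2 the median log2 fold change of the pro-death genes was -0.001, and without labelled-null replicate 1 it was 0.08.

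**Figure D5:**
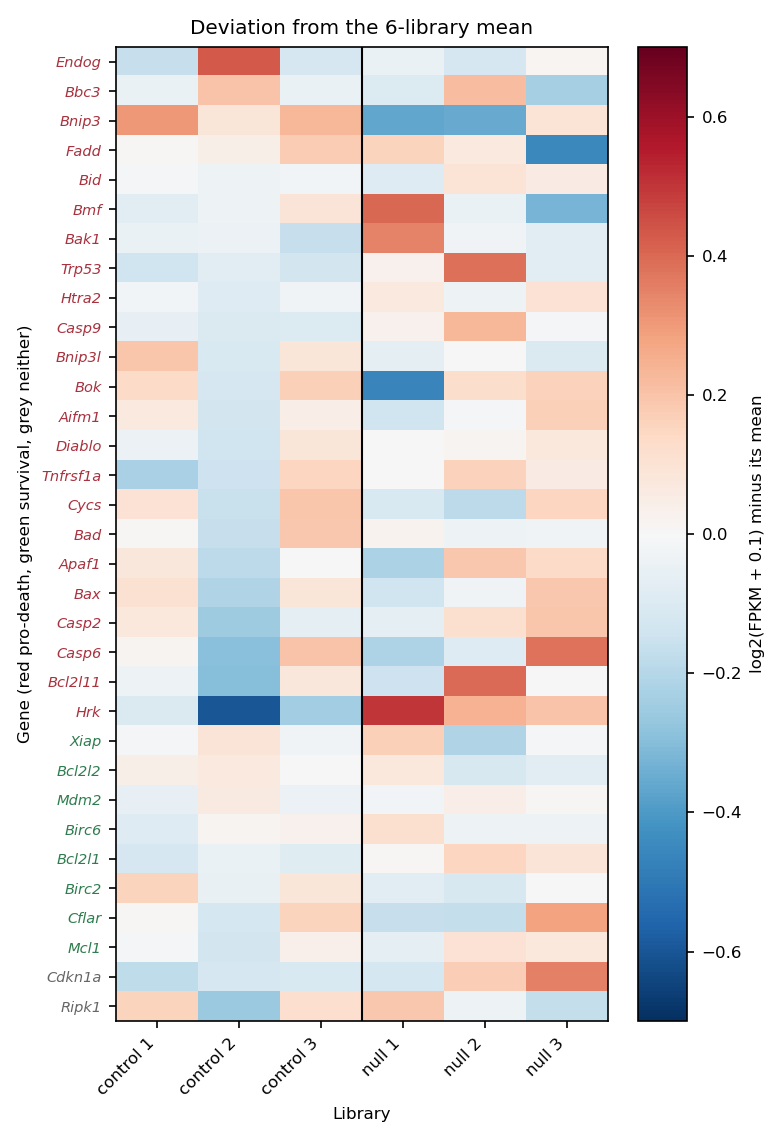
Deviation of each gene in each library from its mean over the 6 libraries, in log2(FPKM + 0.1), for the 33 apoptosis genes averaging 1 FPKM or more; columns are libraries, red is higher, blue is lower. Control replicate 2 is blue for many pro-death genes, labelled-null replicate 1 is blue for *Bax* and *Casp6*, and *Hrk* runs from blue in the controls to red in the labelled-null libraries.

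Other genes of the pathways around these 44 were counted by direction. Among 22 further apoptosis genes tested, 12 were below 0 and 10 above it, with a median log2 fold change of -0.01, and 0 had an adjusted p under 0.05 from limma. Of these 22, 3 were lower and 0 were higher at an unadjusted p under 0.05, against 3.55% and 4.6% of all genes tested. Among the lower ones, *Bcl2l10* passed the 0.1 FPKM filter only through the controls, so its place in this count carries no weight. A list of 11 other targets of the hypoxia-inducible factor was chosen with earlier results of these data known. Its counts are therefore no separate support for the *Bnip3* difference. Of the 11, 8 were below 0, with a median of -0.19. At an unadjusted p under 0.05 from limma, 5 were lower against 3.55% of all genes tested. The 5 were *Ankrd37* (log2 fold change -0.47), *P4ha1* (-0.34), *Pdk1* (-0.24), *Vegfa* (-0.24), and *Adm* (-0.65). The smallest adjusted p of the 11 from limma was 0.24, so none passed. At an unadjusted p under 0.05, 1 of the 11, *Car9*, was higher (log2 fold change 0.95), against 4.6% of all genes tested. *Slc2a1*, the main glucose transporter of the list, was at 78.7 ± 3.7 FPKM in controls and 82.4 ± 2.3 FPKM in the others. For contrast, 7 of the 8 bipolar marker genes were below 0, 6 of them at an unadjusted p under 0.05, and 3 had an adjusted p under 0.05 from limma, with a median log2 fold change of -0.59. The shares of all genes tested that were lower in these ways were 46.7%, 3.55%, and 0.138%.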

How the data were processed

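The authors prepared TruSeq libraries from total retinal RNA, sequenced paired-end reads, mapped them with Tophat, and estimated expression with Cufflinks; the submitters' processing notes name TopHat2, Cufflinks, and GRCm38. The deposited values are FPKM per gene, normalized by the authors for length and depth. Program versions, annotation, and strand setting are not given in the sources used here. Conditions and replicate numbers came from the sample labels, and 0 columns were left unused. FPKM are not counts, so no count model was fitted. The paper gives a range of read depths over its RNA-seq libraries, and the depth of each single library is not given.

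The difference of *Lhx4* null from control was estimated on log2(FPKM + 0.1) in limma 3.58.1 (R 4.3.3; lmFit, then eBayes allowing a trend) from all 6 libraries and no covariate, for the 15200 of 21744 genes averaging 0.1 FPKM or more. All p-values are two-sided, adjusted by Benjamini and Hochberg over all genes tested, with 95% intervals from the same fit. Fold changes on this scale understate changes of low genes. Ratios of single genes were tested by exact permutation. Where a symbol was repeated (6 symbols), the row with the highest mean was used. Relative depth was read from the most frequent ratio of values under 0.1 FPKM between libraries. Fit and depth were tested on simulated data. Positions are from GENCODE vM21 on GRCm38, and promoter sequences are from RefSeq on GRCm38.p6. Matplotlib 3.10.9 under Python 3.11.15 made the plots.

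The members, their roles, and the other gene lists were chosen with earlier results of these data known. Genes named with values were those at an unadjusted p under 0.05, those whose groups did not overlap, the 3 highest and 3 lowest fold changes, the 5 highest means, and a list of core members; the remaining members are given to account for all 44. Other pathway genes named without an adjusted p under 0.05 were chosen after their values were seen, and some genes of that list are not reported here. Alternatives changed the pseudocount, filter, scaling, trend, replicate block, and libraries included.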

Additional observations from a re-analysis of the deposited data

How the results depend on the processing

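No apoptosis gene had an adjusted p under 0.05 from limma in any of the 14 alternatives with a test, and the lowest adjusted p of any of them was 0.11, for *Bnip3* without labelled-null replicate 3. Of 593 gene values recomputed, 559 kept their direction, and 34, in 19 genes with small differences, changed it. Outside the fits that left out a library, this was *Aifm1* only, at -0.005 under median of ratios scaling and 0 under quantile normalization. Over the fits without 1 library the log2 fold change of the 19 genes ran from -0.087 to 0.089 for *Bax*, -0.231 to 0.083 for *Bok*, -0.11 to 0.065 for *Bad*, -0.271 to 0.013 for *Bik*, -0.178 to 0.186 for *Bmf*, -0.199 to 0.025 for *Bbc3*, -0.013 to 0.093 for *Bcl2*, -0.13 to 0.169 for *Casp6*, -0.196 to 0.133 for *Casp8*, -0.01 to 0.193 for *Apaf1*, -0.071 to 0.081 for *Aifm1*, -0.206 to 0.09 for *Endog*, -0.128 to 0.059 for *Xiap*, -0.023 to 0.051 for *Birc6*, -0.001 to 0.06 for *Mdm2*, -0.267 to 0.038 for *Fadd*, -0.177 to 0.047 for *Cflar*, -0.142 to 0.071 for *Ripk1*, -0.365 to 0.074 for *Ripk3*. Leaving out 1 library moved the genes lower at an unadjusted p under 0.05 between 0 and 2 and those higher between 1 and 3. The genes apart between groups moved between 0 and 3 lower and between 4 and 9 higher. A smaller group lies apart more easily, and the share of all genes apart was not counted in these fits. The counts of genes apart therefore have no background here, and what moved them was not tested. Over all genes tested, the share at an unadjusted p under 0.05 ran from 4.54% to 13% in the same fits. With no filter 2 genes were lower at an unadjusted p under 0.05, the filtered *Casp4* being the addition, against 3.6% of all genes in that fit. Without the trend 1 was higher, where 8.15% of all genes tested were at this threshold in either direction. Under median of ratios and quantile normalization 1 gene, *Bnip3*, was wholly lower. The share of all genes wholly lower was not counted under these scalings. The log2 difference of the *Bax* to *Bcl2* ratio ran from -0.17 to 0.10 over the fits without 1 library, turning positive without control replicate 1 (0.04), labelled-null replicate 1 (0.10), or labelled-null replicate 2 (0.006). The log2 ratio of group means without pseudocount was added after the data were seen and turned no gene's direction. Correlations of deviations between same-numbered libraries were -0.13, 0.00, and 0.16. Between differently numbered libraries they ran from -0.24 (control replicate 2 with labelled-null replicate 3) to 0.24 (control replicate 2 with labelled-null replicate 1). Deviations from a group mean are tied together within the group, so these values cannot settle whether libraries shared a litter or batch. With the replicate block, 0 apoptosis genes had an adjusted p under 0.05, 1 was lower and 2 were higher at an unadjusted p under 0.05 against 7.64% of all genes in either direction, and over all genes 15 passed against 34 without it. Genes under 1 FPKM had the widest intervals.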

Other observations

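Of 12 stress and JNK genes around the apoptosis machinery, 7 were below 0 and 5 above it, with a median log2 fold change of -0.03 and a range from -0.34 for *Atf3* to 0.35 for *Fos*, and 0 had an adjusted p under 0.05 from limma. *Fos*, an immediate early gene, was the 1 gene of the 12 higher at an unadjusted p under 0.05, against 4.6% of all genes tested. It was at 2.32 ± 0.07 FPKM in controls and at 3.00 ± 0.33 FPKM in the labelled-null libraries (mean ± SD of 3). The log2 fold change was 0.35, with an adjusted p of 0.54 from limma. The integrated stress genes *Ddit3* and *Atf4* had log2 fold changes of -0.05 and -0.09, and *Jun* one of -0.02.

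Among the further apoptosis genes, those lower at an unadjusted p under 0.05 were *Faim*, *Tnfrsf1b*, and *Bcl2l10*. *Faim*, an inhibitor of Fas-mediated death, was at 20.5, 21.8, and 21.4 FPKM in controls and at 18.2, 17.5, and 19.4 FPKM in the others, with no overlap (log2 fold change -0.21, adjusted p = 0.53 from limma). *Tnfrsf1b* was at 0.746, 0.610, and 0.610 FPKM and at 0.447, 0.363, and 0.491 FPKM, also without overlap. *Bcl2l10*, a survival relative of *Bcl2*, was at 0.228 FPKM or less in every library and listed at 0 in labelled-null replicate 3. It passed the 0.1 FPKM filter only through the controls, with a mean of 0.0503 FPKM in the labelled-null libraries. Its place among the lower genes therefore carries no weight.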
